A study of Mus musculus with 19 samples.

Results

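The 42 genes described here encode parts of the primary cilium and of the machinery that carries cargo along it, together with the Hedgehog pathway genes that signal through it. They were named as a list of gene symbols, and each symbol matched 1 row of a table of 21749 genes. The list was chosen from these data as well as from known function. The stage differences of Lca5 and Spice1, in proestrus against metestrus and in estrus against proestrus, were already known when the genes were listed, so those values are given as a description. No p-value is printed for them, and where they enter counts of genes past a threshold, those counts are no test of them. Spice1 encodes a protein of the centriole and mitotic spindle rather than a subunit of the transport complexes. All 42 genes passed the filter on low values, as did 20644 genes of the whole table.

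Messenger RNA on tagged ribosomes was purified from astrocytes, the star-shaped glial cells of the brain, and sequenced in 19 libraries. All mice carried the transgene Tg(Aldh1l1-EGFP/Rpl10a)JD130Htz on a B6;FVB background, in which the regulatory region of the astrocyte gene Aldh1l1 drives an EGFP-tagged ribosomal protein L10a, and the series title places the tissue in the cortex. The groups were 4 libraries from males, 8 from females in metestrus, 3 from females in proestrus (day samples, by the label) and 4 from females in estrus. Females were collected at 09:00. Ages and the hour at which males were collected are not among the labels used here. Nor do they state whether any 2 libraries of a group share an animal, and p-values therefore refer to the spread between libraries, which may be technical. The labels also name batches 2, 3 and 4. The stages met in batch 2 (2 metestrus with 2 proestrus and 3 estrus libraries) and in batch 3 (1 library per stage), whereas batch 4 combined all 4 male libraries with the other 5 in metestrus.

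The primary cilium is a single, non-motile projection that grows from the mother centriole of most cells, astrocytes among them. It makes no protein of its own. Kinesin-2 motors carry trains of the intraflagellar transport complex IFT-B outward, complex IFT-A returns them and admits membrane receptors, the BBSome moves receptors back out, and a gate at the base, the transition zone, sorts what enters. Hedgehog signalling depends on this traffic: the receptor Ptch1 keeps Smo out of the cilium until ligand binds, and the Gli transcription factors are processed there. Loss of many of these genes causes retinal degeneration and other ciliopathies in people, LCA5 among them.

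Genes of ciliary assembly are often bound by RFX transcription factors at a motif called the X-box. Promoter windows, each from 250 bases before to 50 bases after a transcription start, were taken from RefSeq on build GRCm38.p6 for 38 of the 42 genes (not for Gli1, Ift80, Ift81 and Ift122). A 14-base X-box, searched on both strands, was found in the windows of 5 of these 38 genes (13.2%), against 215 of 27025 genes in the table (0.796%). The match is a description of letters in a window and no evidence of binding. The 5 sites are shown because the choice of genes did not measure this motif, and because 1 of them lies at the start of Spice1. Capitals mark the X-box, and sequences read 5′ to 3′ along the gene.
Spice1 (chr16:44347387-44347416, plus strand): gagctctgGTAACCCAGGCAACggcccgga
Ift57 (chr16:49699199-49699228, plus strand): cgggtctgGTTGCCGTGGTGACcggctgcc
Bbs1 (chr19:4906605-4906634, minus strand): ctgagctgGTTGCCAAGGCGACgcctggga
Tctn1 (chr5:122264411-122264432, minus strand): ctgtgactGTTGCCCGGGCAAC
Tctn2 (chr5:124598679-124598708, plus strand): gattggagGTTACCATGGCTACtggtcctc
The Spice1 X-box spans the start site, from base -6 to base 8 counted from the first transcribed base. The Ift57 and Tctn2 sites lie upstream, and the Bbs1 and Tctn1 sites lie just downstream of the start.

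Lca5 had no X-box in its window. Its upstream 250 bases are shown because it was the gene of the 42 whose level differed most between groups. They lie at chr9:83441128-83441377 on the minus strand, before the first of 2 starts that RefSeq gives, and capitals mark 3 copies of CCAAT, the letters that the factor NF-Y binds.
Lca5 upstream: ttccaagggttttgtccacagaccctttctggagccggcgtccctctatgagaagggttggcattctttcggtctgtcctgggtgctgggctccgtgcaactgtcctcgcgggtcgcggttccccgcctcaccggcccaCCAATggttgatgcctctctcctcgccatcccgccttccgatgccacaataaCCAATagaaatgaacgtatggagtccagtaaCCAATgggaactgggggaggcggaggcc
The copies start at bases -111, -59 and -28. CCAAT, searched on both strands, occurred in the windows of 22 of the 38 genes (57.9%) and of 41.1% of all genes. The GLI site, GACCA followed directly by CCCA, was found in none of the 38 windows and in 0.289% of genes. A palindromic estrogen response element, GGTCA and TGACC 3 bases apart, was found in none of them either, and in 0.074% of genes.

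Values are the deposited log2 levels. Their scaling is not known to include gene length, so levels are compared between groups of 1 gene and never between genes. Sums of the powers of 2 ran from 2.23e7 to 2.56e7 in male libraries and from 1.98e7 to 2.54e7 in female libraries, and the sequencing depth is unknown. The values lack 4 of 15 possible directions of variation between libraries, so a second model with the missing directions added was also fitted. The mean of 8 astrocyte markers was 14.54 ± 0.09 in males, 14.25 ± 0.21 in metestrus, 14.16 ± 0.02 in proestrus and 14.23 ± 0.35 in estrus (SD between libraries, n = 4, 8, 3 and 4). Markers of other cell types were present in every group too. For 8 neuronal markers the mean was 12.49 in males, 12.42 in metestrus, 12.46 in proestrus and 12.56 in estrus. For 6 oligodendrocyte markers it was 11.03 in males, 11.002 in metestrus, 11.16 in proestrus and 11.43 in estrus. How much of each cilium gene's level came from astrocytes was not tested. The mean of 4 Y-linked genes lay between 6.66 and 7.25 in males and between -1.21 and 2.38 in females. The 2 genes Xist and Tsix, summed and put on the log2 scale, ran from 3.08 to 5.202 in males, 7.82 to 9.82 in metestrus, 7.01 to 9.07 in proestrus and 4.64 to 7.57 in estrus. The lowest estrus library thus lay within the male range of these genes, while the Y-linked mean kept all estrus libraries, at 0.06 to 1.99, apart from the males. The transcripts come from bulk tissue, so fewer cells of a type and less RNA per cell cannot be told apart.

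The SD between libraries of 1 group, pooled over the 4 groups, had a median of 0.31 over the 42 genes, against 0.44 over all tested genes. Their median level was 8.34, against 7.59, which is given only because low values spread more on the log scale. Ift81, an IFT-B subunit that binds tubulin with Ift74, had the narrowest spread (0.14). Bbs12, Gli1, Bbs10 and Lca5 had the widest, at 0.97, 0.94, 0.87 and 0.69. In limma's fit of group and batch across all tested genes, 1 of the 42 genes was higher and 1 was lower in proestrus than in metestrus at a Benjamini-Hochberg adjusted p under 0.05. These were Spice1 and Lca5, and over all tested genes the calls made up 0.233% higher and 0.756% lower. In estrus against proestrus 1 gene was called higher, again Lca5, and 0 lower, while 0.596% and 0.344% of all genes were called. Because these differences had informed the list, both counts describe the choice of genes, and nothing is read from them beside the shares of all genes. No other gene of the list was called in either. At an unadjusted p under 0.05 there were 8 of the 42 genes (19%) in proestrus against metestrus, with 13.1% of all genes, and 9 (21.4%) in estrus against proestrus, with 14.5% of all genes. Lca5 and Spice1 are among both. In estrus against metestrus 0 of the 42 genes were called higher or lower, against 0.0194% and 0.0678% of all genes. At an unadjusted p under 0.05 there were 4 (9.52%), namely Ptch1, Bbs4, Kif3a and Kif3b, against 11.3% of all genes. In males against metestrus 0 were called in limma's fit, against 0.0194% higher and 0.00484% lower over all genes. At an unadjusted p under 0.05 there was 1 (2.38%), Ift88, against 5.33% of all genes. The comparisons of proestrus with metestrus and of estrus with proestrus share the proestrus libraries, so they are not independent.

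Median fold changes of the 42 genes lay near those of the table. The median log2 fold change was -0.14 in proestrus over metestrus (all genes, -0.09), -0.03 in estrus over metestrus (all genes, -0.07), 0.01 in estrus over proestrus (all genes, 0.02) and 0.05 in males over metestrus (all genes, 0.04). Changes of more than 1 on the log2 scale were found for 4 of the 42 genes (9.52%) in proestrus over metestrus, against 19.6% of all tested genes. The count was also 4 of 42 in estrus over proestrus, against 18.2% of all genes. Both counts of 4 include Lca5 and Spice1, whose differences had informed the list. In the other 2 comparisons the count was 0, against 15.7% (estrus over metestrus) and 8.73% (males over metestrus) of all genes. These shares were not adjusted for the higher median level of the 42 genes.

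**Figure D1:**
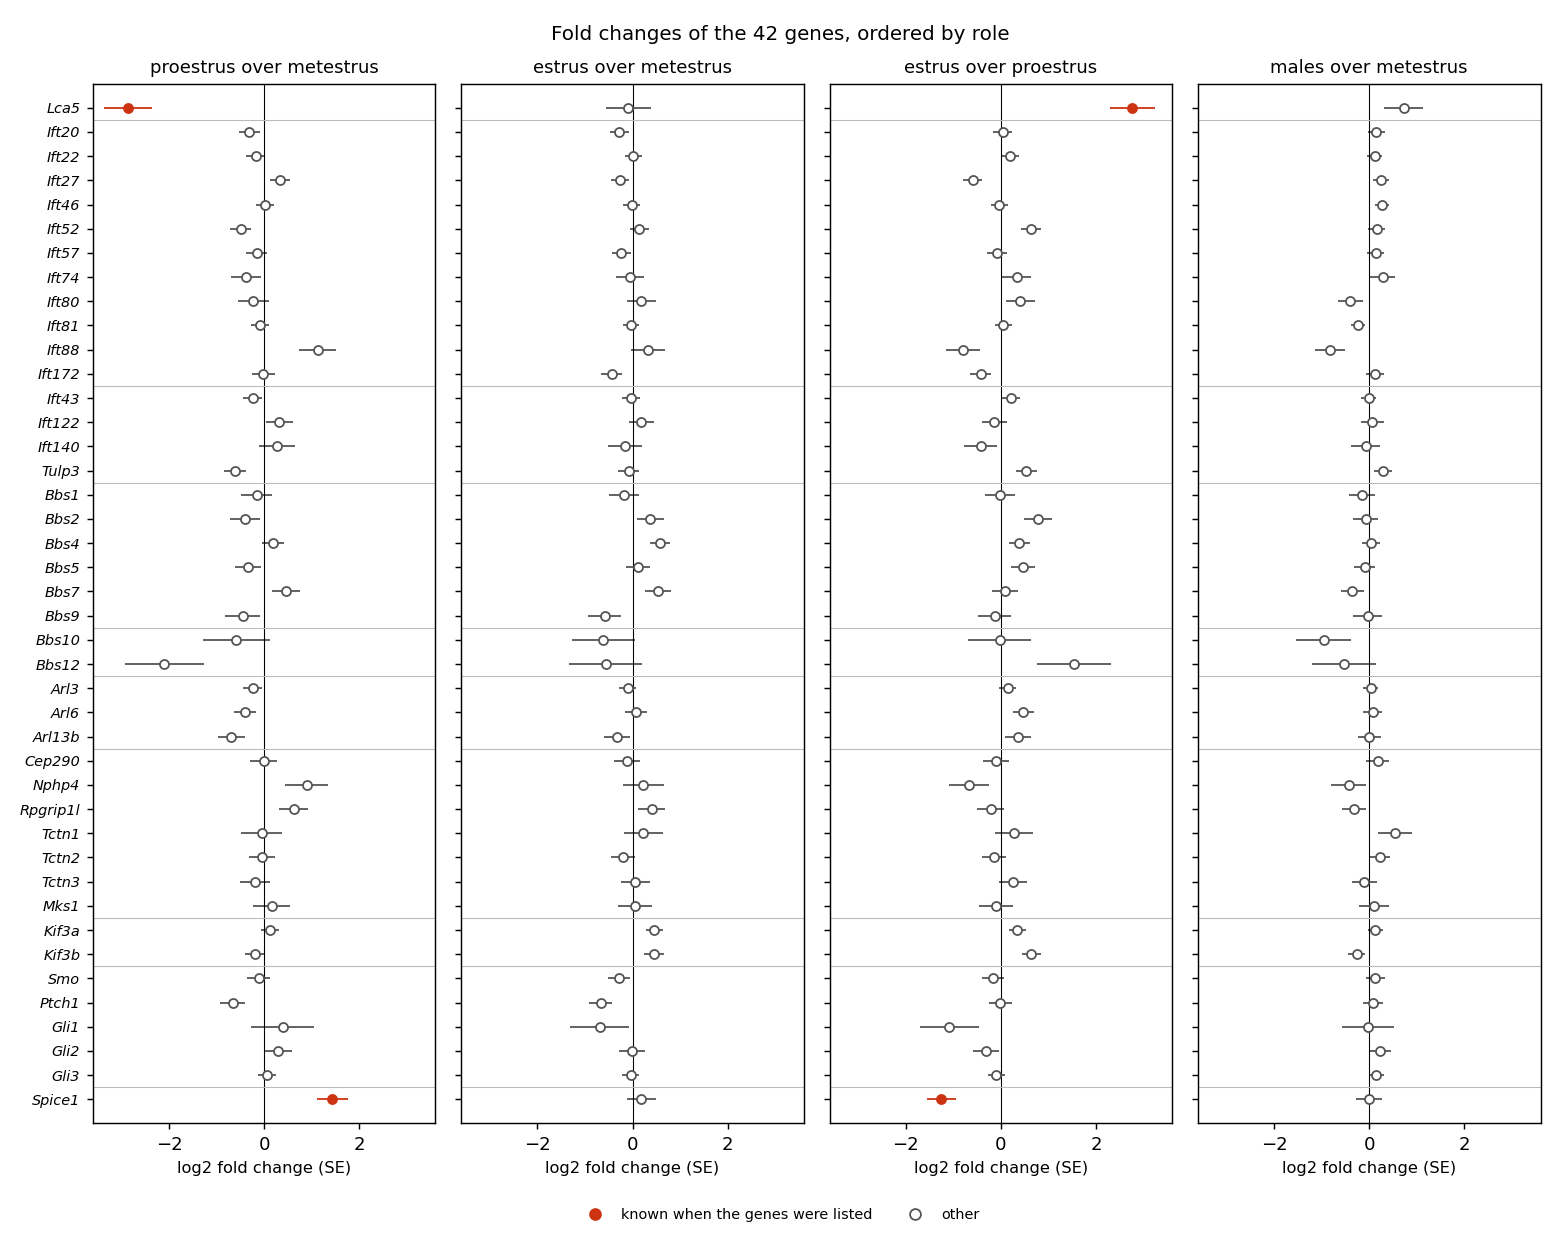
Log2 fold change of each of the 42 genes (rows, grouped by role) in 4 comparisons (panels), with bars for the standard error of the fit. Red points mark the Lca5 and Spice1 differences that were known when the genes were listed, and Lca5 lies farthest from 0, at -2.86 in proestrus over metestrus and 2.76 in estrus over proestrus.

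Lca5 encodes lebercilin, which sits along the ciliary shaft, binds IFT proteins and is needed for transport into the outer segment of photoreceptors. Its level was low in proestrus libraries alone. Lca5 had log2 values of 7.59, 7.84, 8.74 and 8.20 in males. In metestrus it ran from 6.92 through a median of 7.39 to 7.94. It had 4.44, 6.02 and 3.25 in proestrus, and 7.76, 6.67, 8.28 and 6.84 in estrus. The highest proestrus value lay below the lowest value of each other group. The log2 fold change was -2.86 ± 0.50 in proestrus over metestrus, or 7.26-fold lower, where the difference rests on the 3 proestrus and 3 metestrus libraries of batches 2 and 3 and the SE on all 19 libraries. It was 2.76 ± 0.47 in estrus over proestrus (SE, n = 4 and 3), or 6.79-fold higher.

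The proestrus libraries themselves differed widely in Lca5. Proestrus replicate 3, the 1 proestrus library of batch 3, had the lowest value, 3.25. It lay below the filter's minimum of 3.32, where the log scale spreads small differences, and the fold changes above include it. Within batch 2 Lca5 averaged 5.23 in proestrus and 7.17 in metestrus, a difference of -1.95, and within batch 3 the difference was -4.69 between single libraries. Estrus minus proestrus was 2.34 within batch 2 and 3.59 within batch 3. With each library of the compared groups left out in turn, the fold change of proestrus over metestrus stayed between -3.53 and -2.17, and that of estrus over proestrus between 2.17 and 3.46. The contrasts of Lca5 that had not informed the list were smaller: -0.09 ± 0.47 in estrus over metestrus (adjusted p = 0.962, limma) and 0.73 ± 0.41 in males over metestrus (adjusted p = 0.974, limma).

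Ependymal cells, which line the ventricles and bear many motile cilia, also use Lca5 and IFT genes, and their markers moved with Lca5 between stages. Of 10 listed markers 8 were in the table. Their mean was 6.82 ± 0.30 in males, 7.02 ± 0.45 in metestrus, 6.28 ± 0.30 in proestrus and 7.08 ± 0.29 in estrus (SD, n = 4, 8, 3 and 4). In proestrus over metestrus 8 of 8 markers had a negative fold change with a median of -0.66, in estrus over proestrus 8 of 8 had a positive one with a median of 0.78, and 0 passed the threshold in either. Their summed level on the log2 scale ran from 9.70 to 10.14 in proestrus, against 10.02 to 10.8 in metestrus, and from 10.1 to 10.7 in estrus. Foxj1, the master regulator of motile cilia, ranged from 5.63 to 7.60. Tmem212, another of the 8, fell below the filter's minimum of 3.32 in some libraries, with 2.10 in metestrus replicate 2. Proestrus replicates 1 and 2 had the lowest marker means of all libraries, 6.04 and 6.18, with Lca5 values of 4.44 and 6.02. Proestrus replicate 3 had the lowest Lca5 value, 3.25, with a marker mean of 6.62. Metestrus replicates 2, 5 and 6 also had marker means below 6.62, at 6.50, 6.48 and 6.49. Their Lca5 values were 7.004, 7.63 and 6.92. The part of ependymal RNA in the Lca5 result was not tested. Markers of the choroid plexus, another ciliated tissue, had a negative fold change for 4 of 6 genes in proestrus over metestrus, with a median of -0.58 and 0 called. Some of their values lay below the filter's minimum, such as 0.81 for Otx2 in proestrus replicate 3.

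**Figure D2:**
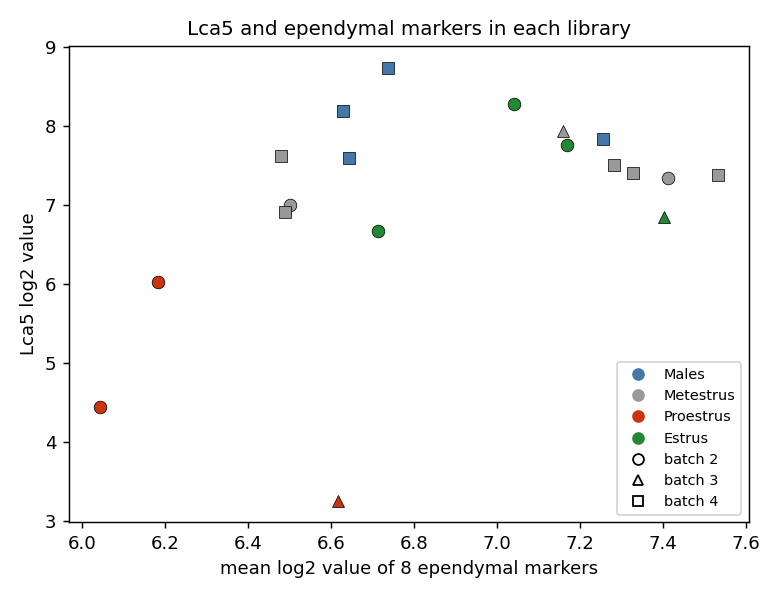
Lca5 log2 value (vertical axis) against the mean log2 value of 8 ependymal markers (horizontal axis) in each of the 19 libraries, coloured by group and shaped by batch. The 3 proestrus libraries lie lowest in Lca5, between 3.25 and 6.02, and between 6.04 and 6.62 in the marker mean.

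Spice1, whose protein is known from human cells to serve centriole duplication and the bipolar spindle, had the opposite pattern to Lca5. Spice1 had 7.02, 6.53, 7.35 and 7.53 in males, and ran from 6.66 through 7.22 to 7.67 in metestrus. It had 8.69, 8.48 and 8.66 in proestrus, and 7.68, 7.22, 6.96 and 7.55 in estrus. The 3 proestrus values lay close together and above every other library. The log2 fold change was 1.44 ± 0.33 in proestrus over metestrus (SE), or 2.71-fold higher, and -1.25 ± 0.31 in estrus over proestrus (SE). The differences within batches were alike, 1.42 in batch 2 and 1.47 in batch 3 for proestrus over metestrus, and -1.30 in batch 2 and -1.11 in batch 3 for estrus over proestrus. The other contrasts were 0.19 ± 0.31 in estrus over metestrus (adjusted p = 0.86, limma) and -0.01 ± 0.27 in males over metestrus (adjusted p = 0.999, limma).

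**Figure D3:**
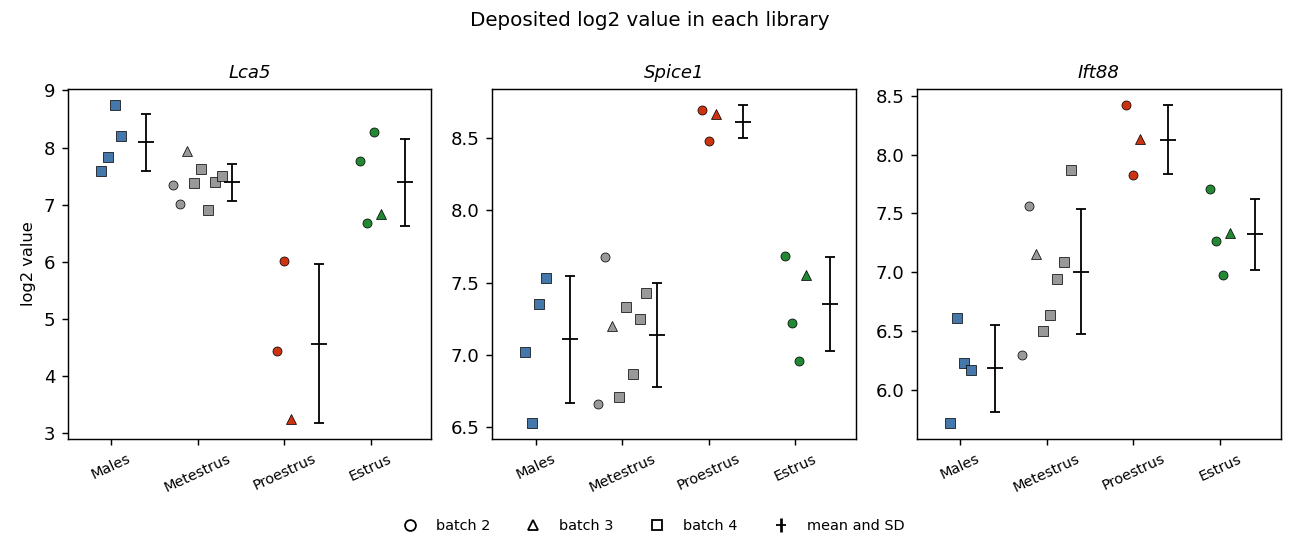
Deposited log2 value of Lca5, Spice1 and Ift88 in each library (points), by group on the horizontal axis and with batch shown by shape, beside the group mean and SD. In proestrus all Lca5 values lie at or below 6.02 and all Spice1 values at or above 8.48, apart from every other library, while the highest metestrus value of Ift88, 7.87, lies within the proestrus range.

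Among the 11 IFT-B genes, whose products form the outward trains, 0 passed the threshold in any of the 4 comparisons. In proestrus over metestrus 3 were positive and 8 negative, with a median log2 fold change of -0.16 (Ift172, close to 0, turned positive with libraries centred), and in estrus over proestrus 6 were positive and 5 negative, with a median of 0.04. Ift88, a core subunit without which cilia do not form properly, had the largest change of the class. It had 5.72, 6.61, 6.23 and 6.17 in males, ran from 6.30 through 7.01 to 7.87 in metestrus, and had 8.42, 7.83 and 8.13 in proestrus and 7.70, 7.27, 6.98 and 7.34 in estrus. Proestrus values lay at the top and male values near the bottom, and the ranges of proestrus and metestrus overlapped. The log2 fold change of Ift88 was 1.12 ± 0.39 in proestrus over metestrus (adjusted p = 0.192, limma), -0.80 ± 0.36 in estrus over proestrus (adjusted p = 0.306) and -0.82 ± 0.32 in males over metestrus (adjusted p = 0.856). Without batch in the model, the adjusted p of Ift88 in proestrus over metestrus was 0.0305, and in the other fits run it stayed above the threshold.

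Other IFT-B genes separated estrus from proestrus without passing the threshold. Ift52, another core subunit, had 9.75, 9.64, 9.27 and 9.20 in estrus, against 8.93, 9.12 and 8.30 in proestrus, a log2 fold change of 0.64 ± 0.21 (adjusted p = 0.132, limma). Ift27, a small GTPase of the train that links it to BBSome export, had 11.48, 11.73, 11.50 and 11.40 in estrus, against 12.27, 11.87 and 12.24 in proestrus, a log2 fold change of -0.60 ± 0.19 (adjusted p = 0.128, limma). Subunits of the same complex thus had fold changes of both signs. Estrus values lay wholly above proestrus values for 5 of the 42 genes (11.9%; all genes, 4.43%), which were Lca5, Kif3b, Ift52, Bbs2 and Bbs5. They lay wholly below for 4 (9.52%; all genes, 4.64%), which were Spice1, Ift27, Ift88 and Ift172, the last a long IFT-B subunit that turns trains round at the tip. In proestrus against metestrus 1 gene, Spice1, lay wholly above (all genes, 3.3%) and 2 wholly below, Lca5 and Tulp3 (all genes, 5.43%). Lca5 and Spice1 had informed the list by their differences between proestrus and the other stages. Their part in these counts therefore follows from the choice of genes. In estrus against metestrus no gene of the 42 lay wholly above or below, against 1.02% and 2.31% of all genes, and in males against metestrus none did, against 0.853% and 0.586%.

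The 3 IFT-A genes Ift43, Ift122 and Ift140 had log2 fold changes between -0.42 and 0.32 over the 4 comparisons, and none passed the threshold. Tulp3, the adaptor through which IFT-A brings G protein-coupled receptors into the cilium, had 9.85, 9.57, 9.33 and 9.04 in males and ran from 8.87 through 9.17 to 9.52 in metestrus. It had 8.44, 8.47 and 8.86 in proestrus and 9.07, 8.65, 9.49 and 9.19 in estrus. The proestrus values lay just below the metestrus range, by 8.86 against 8.87 at the edge. Tulp3 had a log2 fold change of -0.61 ± 0.24 in proestrus over metestrus (adjusted p = 0.25, limma), with differences of -0.59 in batch 2 and -0.66 in batch 3. It was 0.53 ± 0.22 in estrus over proestrus (adjusted p = 0.25, limma).

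The 6 BBSome genes had fold changes of both signs in each comparison, and 0 passed the threshold. Their median log2 fold change was -0.25 in proestrus over metestrus, 0.25 in estrus over metestrus, 0.23 in estrus over proestrus and -0.09 in males over metestrus. Bbs2, which binds Bbs7 and Bbs9 in the core of the complex, had 8.28, 8.46, 8.02 and 8.20 in males and ran from 7.49 through 8.53 to 8.76 in metestrus. It had 8.19, 7.93 and 7.61 in proestrus and 8.55, 8.55, 9.11 and 8.54 in estrus. Estrus values lay above all proestrus values and inside the metestrus range except for 1 library. For Bbs2 in estrus over proestrus the log2 fold change was 0.77 ± 0.29 (adjusted p = 0.205, limma). Bbs4, which ties the BBSome to pericentriolar satellites, had a log2 fold change of 0.57 ± 0.21 in estrus over metestrus (adjusted p = 0.316, limma, and 0.0401 without batch in the model).

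Bbs10 and Bbs12 encode chaperonin-like proteins that help the BBSome assemble. Bbs12 had 4.22, 3.68, 3.95 and 5.01 in males and ran from 4.48 through 4.82 to 5.13 in metestrus. It had 1.61, 4.55 and 2.02 in proestrus and 2.04, 4.86, 4.24 and 5.81 in estrus. Values near 2 or below occurred in 2 proestrus libraries and 1 estrus library, below the filter's minimum of 3.32, where the log scale spreads small differences. In proestrus over metestrus Bbs12 had a log2 fold change of -2.10 ± 0.83 (adjusted p = 0.263, limma), and -1.07 after 10 was added before the log. Bbs10 had log2 fold changes from -0.95 to -0.03 over the 4 comparisons, none called.

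The 3 small GTPases Arl3, Arl6 and Arl13b release lipid-anchored cargo, recruit the BBSome to membranes and shape the ciliary membrane. All 3 had a negative fold change in proestrus over metestrus (median -0.40), all 3 a positive one in estrus over proestrus (median 0.36), and 0 passed the threshold. Arl13b had 8.54, 8.02, 8.81 and 8.47 in males and ran from 7.93 through 8.51 to 8.91 in metestrus. It had 7.90, 7.004 and 8.55 in proestrus and 7.97, 7.98, 8.19 and 8.37 in estrus. The groups overlapped, and 1 proestrus library lay below the rest. In proestrus over metestrus the log2 fold change of Arl13b was -0.69 ± 0.29 (adjusted p = 0.297, limma).

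**Figure D4:**
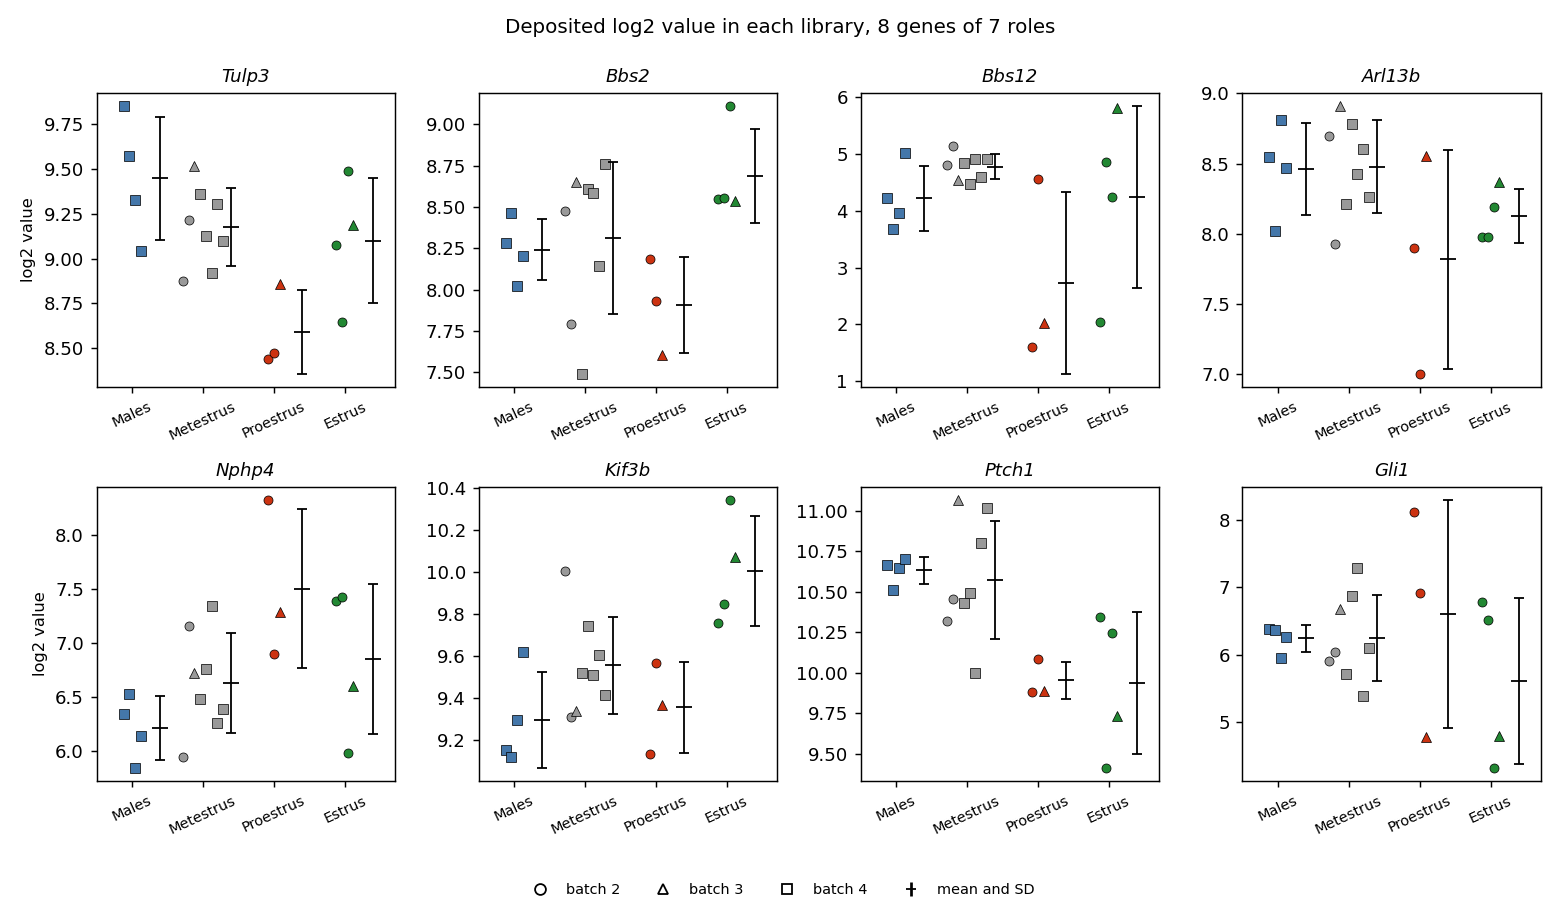
Deposited log2 values of 8 cilium genes in each library (points), by group on the horizontal axis and with batch shown by shape, beside the group mean and SD. Each panel has its own vertical range, and the groups overlap in most panels, while Tulp3 in proestrus ends at 8.86 and Kif3b in estrus starts at 9.76, against a highest proestrus value of 9.57.

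Of the 7 transition zone genes, which build the gate at the base, 0 passed the threshold in any comparison. Cep290, the large protein linking membrane and microtubules in the gate, had a log2 fold change of -0.01 ± 0.29 in proestrus over metestrus (adjusted p = 0.993, limma). Tctn1, Tctn2, Tctn3 and Mks1, members of the gate's membrane complex, had log2 fold changes between -0.20 and 0.54 over the 4 comparisons. Nphp4, of the nephronophthisis module of the gate, had 6.34, 6.53, 5.84 and 6.13 in males and ran from 5.94 through 6.60 to 7.34 in metestrus. It had 8.32, 6.89 and 7.29 in proestrus and 7.38, 7.42, 5.98 and 6.60 in estrus. Only 1 proestrus library lay above the metestrus range. The log2 fold change of Nphp4 was 0.90 ± 0.45 in proestrus over metestrus (adjusted p = 0.409, limma), and that of Rpgrip1l, its scaffold partner, was 0.62 ± 0.31 (adjusted p = 0.404, limma).

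The kinesin-2 motor genes Kif3a and Kif3b both had positive fold changes in estrus, over metestrus and over proestrus, and neither passed the threshold. Kif3b had 9.16, 9.12, 9.30 and 9.62 in males and ran from 9.31 through 9.52 to 10.003 in metestrus. It had 9.13, 9.57 and 9.37 in proestrus and 9.76, 9.85, 10.34 and 10.07 in estrus. All estrus values lay above all proestrus values. Kif3b had a log2 fold change in estrus over proestrus of 0.64 ± 0.20, with an adjusted p of 0.127 in limma's fit, the lowest among the genes other than Lca5 and Spice1 in any comparison. The differences were 0.63 in batch 2 and 0.70 in batch 3. Kif3a had a log2 fold change of 0.46 ± 0.18 in estrus over metestrus (adjusted p = 0.344, limma). Both motors also serve axonal transport in neurons. The 8 neuronal markers, for which a median log2 fold change of 0.14 was found in estrus over metestrus with 6 of 8 positive and 0 called, stand beside this, as do the 6 oligodendrocyte markers, which had a median of 0.45 with 6 of 6 positive and 0 called. Their part was not tested.

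The 5 Hedgehog genes had negative fold changes in estrus over proestrus (median -0.17), with 0 called, though Ptch1 lay close to 0, at -0.01. Over metestrus all 5 were also negative (median -0.28; all genes, -0.07), but Gli2 and Gli3 were so close to 0 that both turned positive once libraries were centred on their medians. Ptch1, the Hedgehog receptor and itself a target of the pathway, had 10.66, 10.51, 10.65 and 10.70 in males and ran from 9.996 through 10.47 to 11.07 in metestrus. It had 9.88, 10.09 and 9.89 in proestrus and 10.35, 9.42, 10.25 and 9.73 in estrus. Ptch1 had log2 fold changes of -0.66 ± 0.26 in proestrus over metestrus (adjusted p = 0.256, limma) and -0.67 ± 0.24 in estrus over metestrus (adjusted p = 0.301, limma). Gli1, the usual transcriptional readout of the pathway, had 6.38, 6.38, 5.96 and 6.27 in males and ran from 5.39 through 6.08 to 7.29 in metestrus. It had 8.12, 6.92 and 4.78 in proestrus and 6.79, 6.52, 4.33 and 4.80 in estrus. The proestrus libraries were far apart, and the difference of proestrus minus metestrus was 1.53 in batch 2 and -1.89 in batch 3. Gli1 had log2 fold changes of 0.39 ± 0.66 in proestrus over metestrus (adjusted p = 0.856, limma), -0.69 ± 0.62 in estrus over metestrus (adjusted p = 0.711, limma) and -1.08 ± 0.62 in estrus over proestrus (adjusted p = 0.437, limma). Markers of endothelial and mural cells of the vessels had median log2 fold changes of -1.01 (4 of 4 negative) and -0.61 (3 of 4 negative) in estrus over metestrus, with 0 called, and their part was not tested. Some of these markers lay below the filter's minimum of 3.32, such as Pecam1 (0.34) and Kcnj8 (-2.10) in estrus replicate 1. Smo, Gli2 and Gli3 had log2 fold changes between -0.31 and 0.30 over the 4 comparisons.

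**Figure D5:**
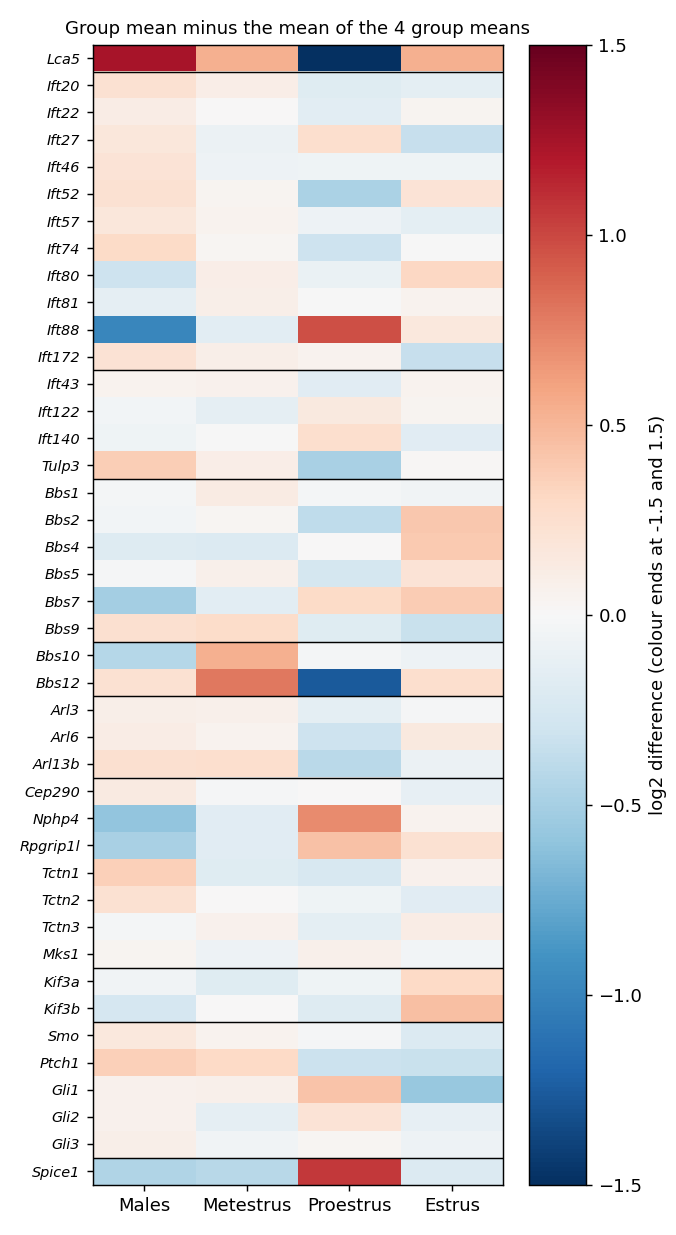
Group mean minus the mean of the 4 group means, on the log2 scale, for the 42 genes (rows, ordered by role) in males and the 3 stages (columns). Red is above and blue below 0, and the colour scale ends at -1.5 and 1.5, beyond which Lca5 in proestrus lies at -2.29; Spice1 and Ift88 have positive proestrus cells of 1.06 and 0.97.

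A wider list of 76 other cilium genes, covering further subunits of the same complexes, dynein-2, the basal body, membrane cargo and the RFX factors, is set beside them. All 76 were in the table and 74 were tested. The list counted 0 called genes in proestrus over metestrus (median log2 fold change -0.10), 0 in estrus over metestrus (0.01), 1 in estrus over proestrus (0.05) and 0 in males over metestrus (0.02). The 1 called gene, called higher, made up 1.35% of those tested, against 0.596% called higher over all genes. At an unadjusted p under 0.05 there were 15 (20.3%; all genes, 13.1%) in proestrus over metestrus and 9 (12.2%; all genes, 11.3%) in estrus over metestrus. There were 14 (18.9%; all genes, 14.5%) in estrus over proestrus and 7 (9.46%; all genes, 5.33%) in males over metestrus. The called gene was Ofd1, which encodes a protein of the centriole end that is needed to anchor the cilium. Ofd1 had 7.24, 6.998, 7.07 and 7.48 in estrus, against 5.82, 5.62 and 6.23 in proestrus, while metestrus ran from 6.48 through 6.90 to 7.51. Ofd1 had a log2 fold change of 1.32 ± 0.31 in estrus over proestrus (adjusted p = 0.042, limma) and -1.002 ± 0.33 in proestrus over metestrus (adjusted p = 0.169, limma). With the missing directions of variation added to the model, the adjusted p of Ofd1 in estrus over proestrus was 0.201, and 1 of 7 fits that left out a library kept the call. The lowest adjusted p of the wider list in proestrus over metestrus was 0.0746, for Inpp5e, the phosphatase that sets the lipids of the ciliary membrane, with a log2 fold change of -0.99 ± 0.26 in limma's fit.

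How far single libraries carried the values differed between comparisons. In proestrus against metestrus, 2 genes passed the threshold with all libraries, 1 when the missing directions were added, and 0 when proestrus replicate 3 or metestrus replicate 3, the batch 3 libraries, was left out. In estrus against proestrus, at least 1 gene passed in each of the 7 fits that left out a library and with the missing directions added. The genes counted with all libraries were Lca5 and Spice1, whose differences had informed the list. These counts therefore describe the choice of genes and are no test of it. With batches 2 and 3 alone in the fit 0 genes passed in any stage comparison.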

How the data were processed

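The deposited table holds log2 values per gene for 19 TRAP libraries (translating ribosome affinity purification), spanning -5.12 to 19.0. STAR, Salmon, edgeR and build GRCm39 are named in the submitters' processing notes, whereas pseudocount, scaling and filters were not given in the sources used here. Powers of 2 of the deposited log2 values summed to 1.98e7 to 2.56e7 per library. The values lack 4 of the 15 directions of variation that 19 libraries in 4 groups would have, and 98.6% of the first batch direction lies among them.

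The test took in 20644 genes (94.9%), those that reached 3.32 on the log2 scale, or 10 on the linear scale, in 3 or more libraries. One linear model with terms for group and batch was fitted to the 19 libraries with limma 3.58.1 (R 4.3.3), using a mean trend and a robust prior, which left 13 residual degrees of freedom. Two-sided p-values were corrected over all of these genes by the Benjamini-Hochberg method, at a threshold of 0.05. The code was tested on simulated data. With batch in the model, stage fold changes rest on batches 2 and 3 and those of males on batch 4.

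The 42 genes, the wider list and the marker lists were chosen with earlier results of these data known. Values per library were given for genes past the threshold, for the gene of the largest fold change in each role and for genes at the edge of the threshold. Ptch1, Ift27 and Ift52 were added after their values were seen. Replicate numbers only name libraries, in accession order. Alternatives were no filter, 10 added before the log, no batch term, the missing directions added (10 residual degrees of freedom), libraries centred on their medians, shared batches alone, and each library left out. Promoters came from RefSeq (GRCm38.p6), so their coordinates are not those of the authors' build.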

Additional observations from a re-analysis of the deposited data

Results flagged for a closer look

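In 15 of 126 gene and group combinations with 4 to 8 libraries, 1 library lay far from the others by Dixon's gap test, which chance alone does in about 1 of 20 such groups. Genes of 1 library share its deviations, so these combinations are not independent. The share of flagged combinations over all tested genes was not computed. Whether the listed genes were flagged more often than other genes was therefore not tested.

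Metestrus replicate 6 was low for 4 genes, with 11.24 for Ift20, 9.35 for Ift74, 10.45 for Arl6 and 8.40 for Cep290. Metestrus replicate 4 was low for Ift22, at 10.68. Estrus replicate 4, the batch 3 library of its group, was low for Ift80 (7.53), Bbs7 (7.32) and Kif3a (11.53). Estrus replicate 1 was low for Bbs9 (6.36) and high for Tctn3 (7.81). Estrus replicate 3 was high for Bbs2 at 9.11, where the other 3 lay between 8.54 and 8.55. Males replicate 2 was low for Ift22 (10.93) and Kif3a (11.32), males replicate 1 was high for Ift27 (12.50), and males replicate 4 was low for Ift140 (6.82). None of these genes passed the threshold in any comparison.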

How the results depend on the processing

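No refit turned the direction of Lca5 or Spice1 in proestrus over metestrus or estrus over proestrus, the differences known when the genes were listed. Among 2725 refits of fold changes that were not called, 164 changed sign. Where Lca5 and Spice1 enter the counts that follow, the counts describe the choice of genes, because both had informed the list. In proestrus over metestrus, 2 cilium genes passed the threshold, namely Lca5 and Spice1. The count was 3 without the batch term, Ift88 among them, 1 when the missing directions were added and 0 with shared batches alone. The fits that left out 1 library gave 0 to 2. It was 0 without proestrus replicate 3 or metestrus replicate 3, and 1 without metestrus replicates 1, 5 or 7 or proestrus replicates 1 or 2. In estrus over metestrus the count was 0 in the main fit, 1 without the batch term (Bbs4) and 0 in each fit that left out 1 library. In estrus over proestrus it was 1, with 2 under a pseudocount of 10, without the batch term or with libraries centred, and 0 with shared batches alone. Leaving out 1 library gave 1 to 2, with 2 without estrus replicate 1; the added gene was Spice1 in each case. In males over metestrus it was 0 in all fits.

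Over all tested genes, 204 were called in proestrus over metestrus, 20 with the missing directions added, 1146 without the batch term and 1 with shared batches alone. Of the 204, 48 were higher and 156 lower, and under a pseudocount of 10 the split was 105 higher and 59 lower. In estrus over proestrus 194 were called, against 29 with the missing directions added, 0 with shared batches alone, 310 with libraries centred, and 217 higher and 144 lower without the batch term. In estrus over metestrus 18 were called, against 0 with the missing directions added, 899 without the batch term and 0 with shared batches alone. In males over metestrus 5 were called, 13 under a pseudocount of 10 and 10 without the batch term. Centring the libraries moved the median of all genes by less than 0.1 on the log2 scale.

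No paired analysis was possible because the labels give no replicate numbers that tie libraries of different groups to 1 animal, litter or day.

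The small number of proestrus libraries, the unknown depth and the missing directions of variation limit these results. With 13 residual degrees of freedom where the values support fewer, p-values are too small. The batch terms and group differences between stages rest on 10 libraries.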
